A study of Mus musculus with 4 samples.

Results

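The spots described here are small regions of lung tissue that bordered tumour foci in mice carrying 4T1 mammary carcinoma, set against lung tissue of the same sections far from any focus. In the lung sections, spots with more than 200 genes were kept, and each was given a carcinoma score, the share of its unique molecular identifiers (UMIs) taken by the 8 genes Csf3, Mmp3, Mmp13, Plau, Fscn1, Hmga2, Tns4 and Wnt7b. A core spot lay in the top 10% of its section by this score and had at least 3 neighbours that did so too. A margin spot touched a core spot (distance 1 on the hexagonal array), a distant spot lay at a distance of 4 or more, and both were outside the top 25% by score. This gave 59 margin spots (28 and 31 in the 2 mice) and 3012 distant spots (1138 and 1874), so 3071 of the 4477 lung spots kept. The series held 9339 kept spots of 9445 under tissue. The spots were thus chosen by measured values, those of the 8 score genes, so the levels of its genes are given as a description and no test of them is used.

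The series profiled the primary tumour and the lung of the same 2 BALB/c mice, labelled Mouse_627 and Mouse_628 and called mouse A and mouse B here, and no lung of a tumour-free mouse was among the samples. The mice had received 100000 syngeneic 4T1 cells in the mammary fat pad at 8 weeks of age and were killed after 28 days. 4T1 is an established triple-negative mouse mammary tumour line, known for seeding the lung from the fat pad without help. Fixed, paraffin-embedded sections were profiled by 10x Visium with mouse probes, and a spot can hold several cells of different types. A single section stood for each lung, so the mouse was the replicate (n = 2), and spots of a section were not counted as replicates.

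The alveolar wall is made of thin type 1 cells, which carry gas exchange, type 2 cells, which make surfactant, and a dense bed of capillaries whose endothelium is of a general kind and of a kind called aerocytes. Lung metastases grow in and along these walls, and the tissue at their edge is known to hold macrophages, activated fibroblasts and neutrophils as well as remnants of alveoli. 4T1 tumours secrete G-CSF, the product of Csf3, and hosts of this tumour are known for very high numbers of neutrophils in blood and lung.

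The lung section of mouse A held 11122812 UMIs and that of mouse B 30240176. The margin sums rested on 149887 and 309729 UMIs and the distant sums on 7592352 and 16228511, so the margin set the precision. A margin spot had a median of 4825 UMIs in mouse A, where a distant spot had 6662.5, and 8233 against 8103 in mouse B. The 2 lung sections shared 1458 spot barcodes, which repeat by the design of the array. There were 6 foci in mouse A, of 1 to 37 core spots, and 11 in mouse B, of 2 to 46, and 15 of these 17 had margin spots, between 1 and 10 each. Before the exclusion by score, 94 and 178 spots lay at distance 1, so the margin holds the minority of bordering spots that lay outside the top 25% by score.

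**Figure D1:**
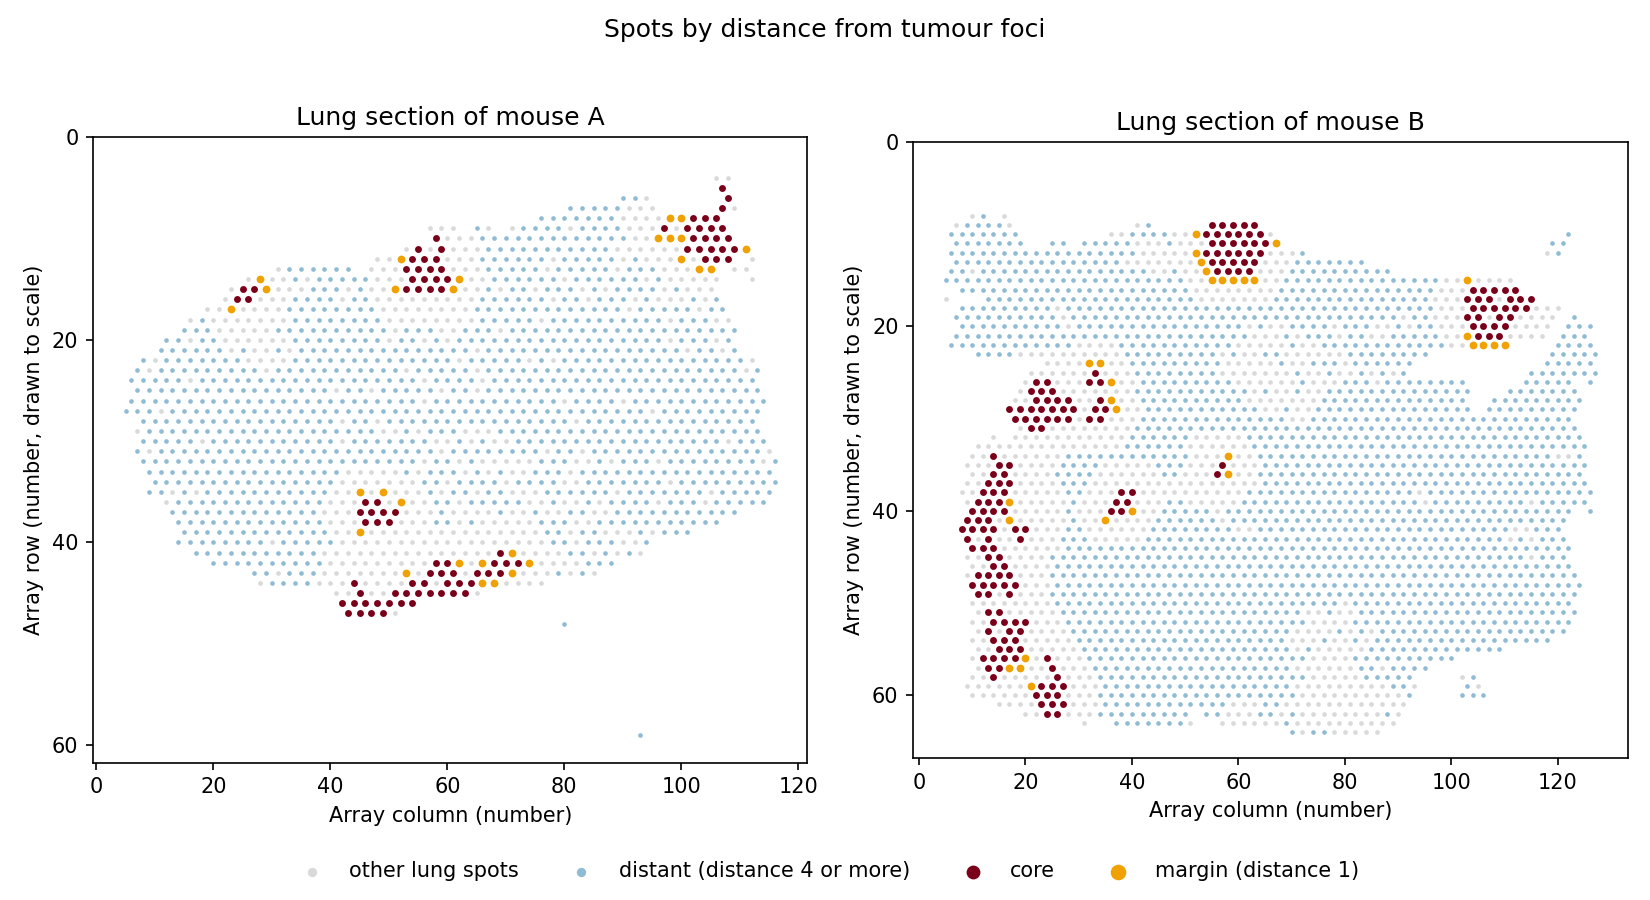
Position of every kept lung spot on the array (column and row numbers) in each mouse, coloured by class. Margin spots are few (28 and 31) and sit in scattered runs around the core, with several foci at the edge of the section.

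The score was not on 1 scale in the 2 sections. In counts per 1000000 UMIs (CPM), margin spots ran from 0 through a median of 0 to 234.7 in mouse A and from 340.4 through 1488 to 2057 in mouse B. Distant spots had a median of 0 in mouse A and of 595.5 in mouse B, with highest values of 236.1 and 2062. Of the margin spots of mouse B, 87.1% reached the value that bounds the top 10% of mouse A, and so did 53.7% of its distant spots. In mouse A no UMI of the 8 genes was seen in 16 of 28 margin spots and 815 of 1138 distant spots. In mouse B this held for 0 of 31 margin spots and 169 of 1874 distant spots. The spots next to the thresholds differed little, at 555.6 inside and 554.3 outside the top 10% and 237.4 and 236.1 around the top 25% of mouse A, and at 2989 and 2988, and 2063 and 2062, in mouse B. A separate list of other carcinoma-associated genes summed to 387 CPM in the margin, 428.6 in distant tissue and 454 in the core of mouse A, and to 555.3, 514.3 and 580.9 in mouse B, and 0 of the 9 tested were called.

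Summed over spots, the score genes took 106.7 CPM in the margin and 46.76 in distant tissue of mouse A, and 1556 and 825 in mouse B. Mmp3, a stromelysin, stood at 20.02 CPM in the margin and 8.166 in distant tissue of mouse A, and at 532.7 and 215.1 in mouse B. Csf3 stood at 6.672 and 0.5268 CPM in mouse A, from 1 margin UMI, and at 145.3 and 56.94 in mouse B. By focus they lay above distant tissue at 3 of 6 margins in mouse A and 9 of 9 in mouse B. Because the score genes were higher in the summed margin of both mice, a second set of distant spots with like scores was drawn (322 and 398 spots), and medians of the main lists and changes of some genes against these score-matched spots are given beside the results. Of the calls of single genes named below, those of Reg3g, Bpifa1, Bpifb1, Muc5b, Tff2, Agr2, A2ml1, Lypd2, Scgb3a2, Lgals1, Mt2, Cxcl14, Car9, Dpep1 and Retnlg held against score-matched spots, and all others were lost. The matching uses the same 8 genes, most spots of mouse A had no UMI of them, and the part of carcinoma cells in the results was not tested. A lower level in a spot can come from fewer cells of a type or from less RNA in each, and these cannot be told apart here.

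Which genes changed beside the foci was asked over 12460 genes on the margin and distant sums. With the mice as plain replicates, edgeR called 0 genes at an adjusted p of 0.05, with 210 at an unadjusted p under 0.05, while DESeq2 called 8. Both sums of a mouse come from 1 section, and with the mouse as a block 290 genes were called. With the same block 0 genes were called when all classes were in 1 fit and 0 when spots were not excluded by score, with 1188 and 2820 genes at an unadjusted p under 0.05. Without the score genes these were 287, or 2.3% of 12452, with 100 higher in the margin (0.803%) and 187 lower (1.5%). Scaling by library size alone gave 201 higher and 72 lower calls with the block, in place of 103 and 187 with the score genes included. In what follows rose and fell refer to calls with the block, whose fit leaves 1 residual degree of freedom per gene. No permutation of 2 mice could pass 0.05. Of the 287 genes, 283 had the same direction in both mice, a share that is in large part set by the calling, since the block favours genes that change alike in both. Pairs of CPM values give the margin first and distant tissue second. Over all genes, 25.8% were higher in both mice and 32.4% lower in both.

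The calls leaned on single foci. When the margin spots of each of the 15 foci were left out in turn, between 82 and 417 genes were called, and the lowest count came without the second largest focus of mouse A. Airway genes were high in the margins of 3 foci, which were that one, the smallest of mouse A and the third largest of mouse B. The list of airway genes summed to 13460, 20900 and 37960 CPM in these 3 margins, against 2758 CPM in distant tissue of mouse A and 2189 in mouse B. In the margins of the other 12 foci it lay between 35.87 and 1570 CPM, below distant tissue of the same section. A count made after the values were seen found 53 genes that were called, in the same direction, with all foci and without each one, and 47 of them (19 higher and 28 lower) were also called when spots with 1% or more airway UMIs were left out.

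**Figure D2:**
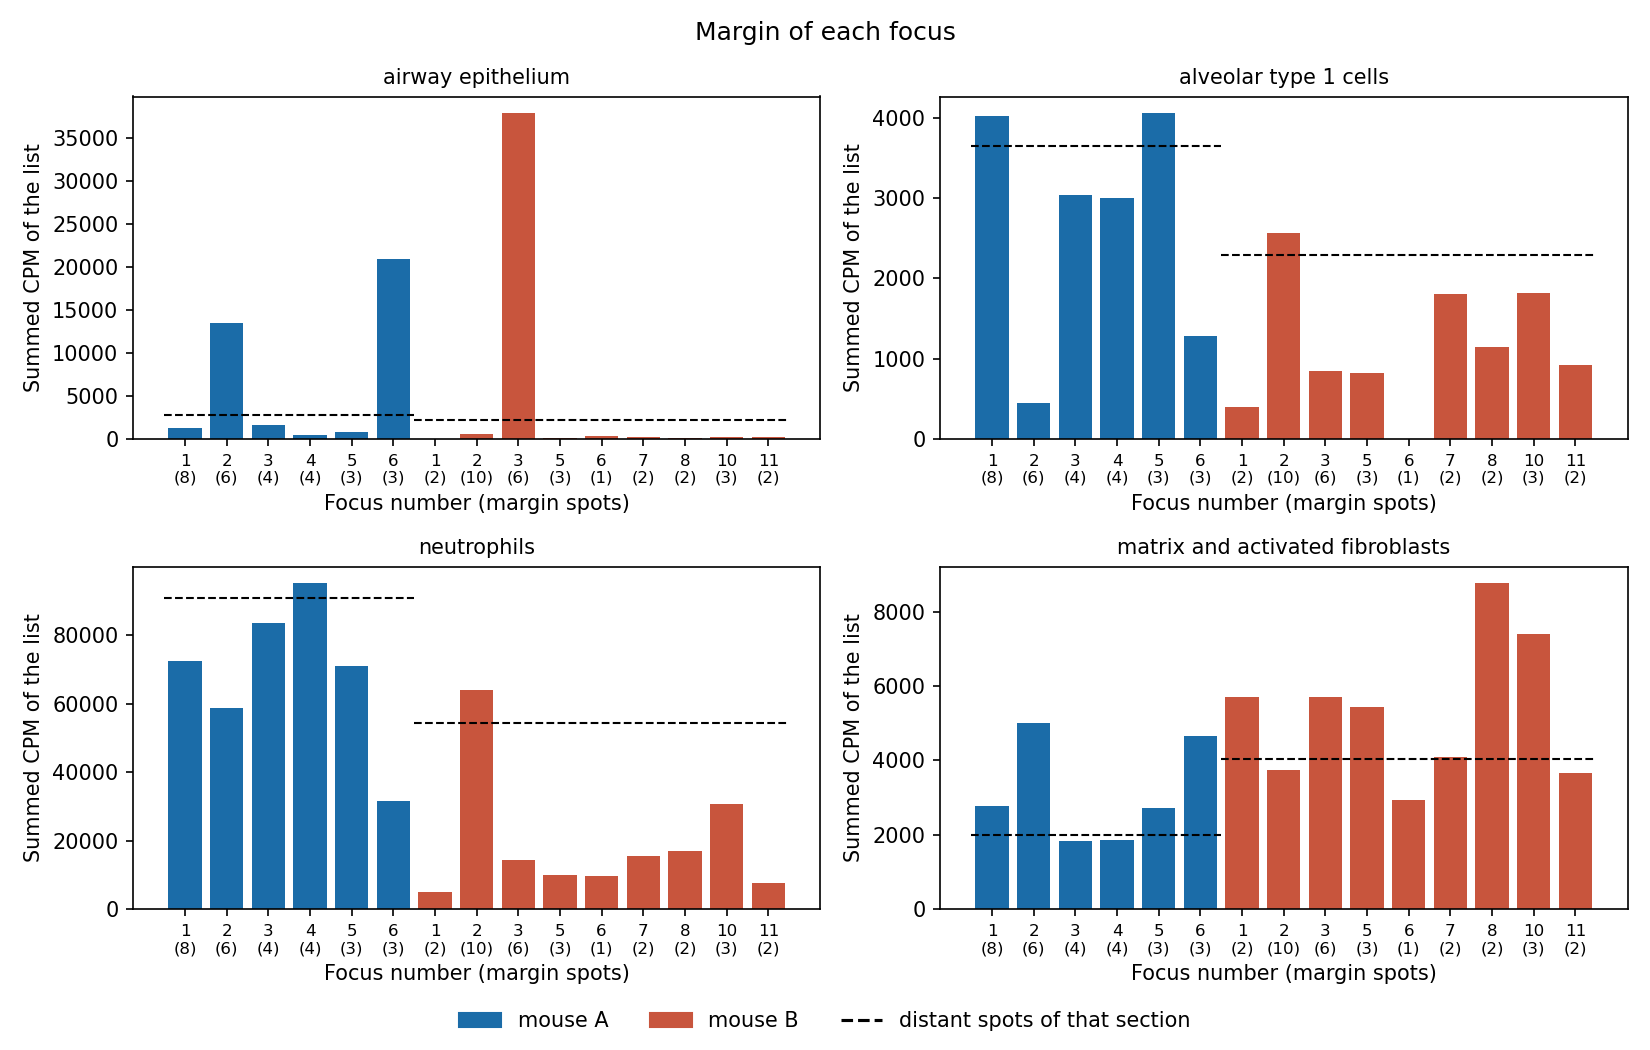
Summed CPM of 4 gene lists in the margin of each focus (bars, with the number of margin spots in brackets), beside the distant spots of the same section (dashed lines). Airway genes stand high at 3 foci, alveolar type 1 genes lie below distant tissue at 12 of 15 foci, and neutrophil genes at 13 of 15.

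Alveolar type 1 genes were lower in the margin. Their list of 12 summed to 2802 CPM in the margin and 3647 in distant tissue of mouse A, and to 1459 and 2287 in mouse B. The margin of 4 of 6 foci in mouse A and 8 of 9 in mouse B lay below the distant level. In mouse A the airway-rich margins of the second largest and the smallest focus stood at 452.1 and 1286 CPM. The other margins there lay between 3006 and 4061 CPM, on both sides of the distant level, so the lower sum of mouse A rests largely on those airway-rich margins. Ager, the receptor that marks type 1 cells, stood at 1054 and 1302 CPM in mouse A and at 400.3 and 771.9 in mouse B, and fell by 0.74 on the log2 scale (SE 0.22, adjusted p = 0.0424). Hopx, a transcriptional cofactor of these cells, stood at 306.9 and 429.8 CPM in mouse A and at 209.9 and 379.1 in mouse B, and fell by 0.81 (SE 0.22, adjusted p = 0.0179). These calls held in 11 and 14 of the 15 fits that left out a focus. Clic5, a chloride channel protein, and Cldn18, a tight junction claudin, fell as well, so 4 of 12 fell and 0 rose, and 10 of 12 were lower in both mice. The median log2 change of the list was -0.74, against -0.02 for all genes, and it was -0.44 against score-matched tissue, where 0 of 12 were called. No member of the list was called without the second largest focus of mouse A, where the list stood at 452.1 CPM, or without airway-rich spots.

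Type 2 genes summed lower in the margin of both mice, and none was called. Their list of 11 summed to 11270 CPM in the margin and 12930 in distant tissue of mouse A, and to 6916 and 10330 in mouse B. It lay below the distant level at 4 of 6 and 8 of 9 foci. In mouse A the airway-rich margins of the second largest and the smallest focus stood at 1878 and 3697 CPM. The other margins there lay between 11660 and 17740 CPM, so the lower sum of mouse A rests on those airway-rich margins. Sftpc, the surfactant protein that defines these cells, stood at 8720 and 10240 CPM in mouse A and at 5269 and 8038 in mouse B (log2 change -0.54, SE 0.30, adjusted p = 0.439). The median log2 change was -0.43, or -0.17 against score-matched tissue. Among 11 genes that mark injured alveolar epithelium, only the keratin Krt8 rose. It stood at 140.1 CPM in the margin and 39.65 in distant tissue of mouse A and at 251.8 and 146.2 in mouse B (log2 change 0.93, SE 0.20, adjusted p = 0.00139), but its core levels were higher still, at 260.8 and 273.5 CPM, and it was not called without the second largest focus of mouse A.

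Capillary genes were lower beside nearly every focus. The list of general capillary genes summed to 2442 CPM in the margin and 3294 in distant tissue of mouse A, and to 1120 and 2081 in mouse B, and it lay below the distant level at 5 of 6 and 9 of 9 foci. Cldn5, the endothelial claudin, stood at 366.9 and 509.6 CPM in mouse A and at 148.5 and 345.7 in mouse B, and fell by 0.96 (SE 0.22, adjusted p = 0.00269). Cdh5 (VE-cadherin), Cd93 and Gpihbp1, which anchors lipoprotein lipase on capillaries, fell, with log2 changes of -0.91, -0.92 and -0.96. In all 4 of 12 fell and 11 of 12 were lower in both mice, with a median log2 change of -0.68, or -0.38 against score-matched tissue, where 0 of 11 were called. Without the second largest focus of mouse A none of the 12 was called. Of the 12 aerocyte genes 3 fell. Cyp4b1, a cytochrome P450 at chr4:115624698-115647721 (GRCm38), stood at 253.5 and 408 CPM in mouse A and at 138.8 and 339.9 in mouse B, and fell by 1.13 (SE 0.22, adjusted p = 0.000224). Its call held without each focus and without airway-rich spots, but against score-matched tissue the change was -0.60 (adjusted p = 0.595) and 0 of the 12 were called. Car4, the aerocyte carbonic anhydrase, and Prx fell, with log2 changes of -0.78 and -1.04, but Car4 was called in 7 of the 15 fits that left out a focus, and neither was called without the second largest focus of mouse A.

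Outside these lists lay Hpgd, 1 of the 12 largest falls, and Ramp2 and Adgrf5, which were chosen after their values were seen. All 3 were among the 28 that fell whichever focus was left out and also without airway-rich spots. Ramp2, part of the adrenomedullin receptor, stood at 273.5 and 427.8 CPM in mouse A and at 90.4 and 269.2 in mouse B, and fell by 1.21 (SE 0.23, adjusted p = 8.68e-05). Adgrf5, an adhesion receptor of alveolar and endothelial cells, stood at 320.2 and 544.8 CPM in mouse A and at 180.8 and 365.7 in mouse B. It fell by 1.02 (SE 0.22, adjusted p = 0.00119). Hpgd, which degrades prostaglandins, stood at 73.39 and 170.8 CPM in mouse A and at 41.97 and 102.3 in mouse B, and fell by 1.38 (SE 0.28, adjusted p = 0.000227). Against score-matched tissue the changes of the 3 were -0.82, -0.62 and -0.84, none called.

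Alveolar fibroblast genes were lower in the margin, with 2 of 12 that fell and 0 that rose. The list lay below the distant level at 5 of 6 and 8 of 9 foci, 6 of 12 were lower in both mice and 0 higher in both, and the median log2 change was -0.51, or -0.31 against score-matched tissue. Fmo2, a flavin monooxygenase rich in lung (chr1:162874317-162898758), stood at 320.2 and 559.2 CPM in mouse A and at 193.7 and 498.2 in mouse B, and fell by 1.22 (SE 0.22, adjusted p = 3.89e-05), which held in every one of the 15 fits, but was -0.76 and not called against score-matched tissue (adjusted p = 0.0557). Inmt, a methyltransferase, fell by 0.82 and was called in 13 of the 15, and the other 10 members were not called, among them Pdgfra, at 100.1 and 135.4 CPM in mouse A and 174.3 and 150.5 in mouse B. Summed, the list stood at 2008 CPM in the margin and 2685 in distant tissue of mouse A, and 1107 and 1679 in mouse B.

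Genes of matrix and activated fibroblasts were higher in the margin. Their 18 members summed to 2869 and 2000 CPM in mouse A and to 5915 and 4036 in mouse B. They lay above the distant level at 4 of 6 and 6 of 9 foci. In mouse A the list was highest in the airway-rich margins of the second largest and the smallest focus, at 5008 and 4662 CPM. Smooth muscle genes were high there too, at 2295 and 1125 CPM. The other margins of mouse A lay between 1837 and 2783 CPM. In mouse B the airway-rich margin stood at 5705 CPM, and the others between 2932 and 8771 CPM. Thbs1, the matricellular thrombospondin 1, stood at 300.2 and 191.5 CPM in mouse A and at 842.7 and 398.7 in mouse B, and rose by 0.79 (SE 0.21, adjusted p = 0.016). Col1a1, the fibrillar collagen chain, stood at 253.5 and 121.3 CPM in mouse A and at 613.4 and 365.5 in mouse B, and rose by 0.74 (SE 0.21, adjusted p = 0.0229). Without the second largest focus of mouse A Col1a1 was not called. Thbs1 and Col1a1 were called in 13 and 11 of the 15 fits that left out a focus. These 2 of 18 rose and 0 fell, 10 of 18 were higher in both mice and 0 lower in both, and the median log2 change was 0.45, or 0.28 against score-matched tissue. In mouse B the list was as high in the margin as in the core, at 5915 and 5663 CPM, and in mouse A the core was higher, at 3926 CPM.

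**Figure D3:**
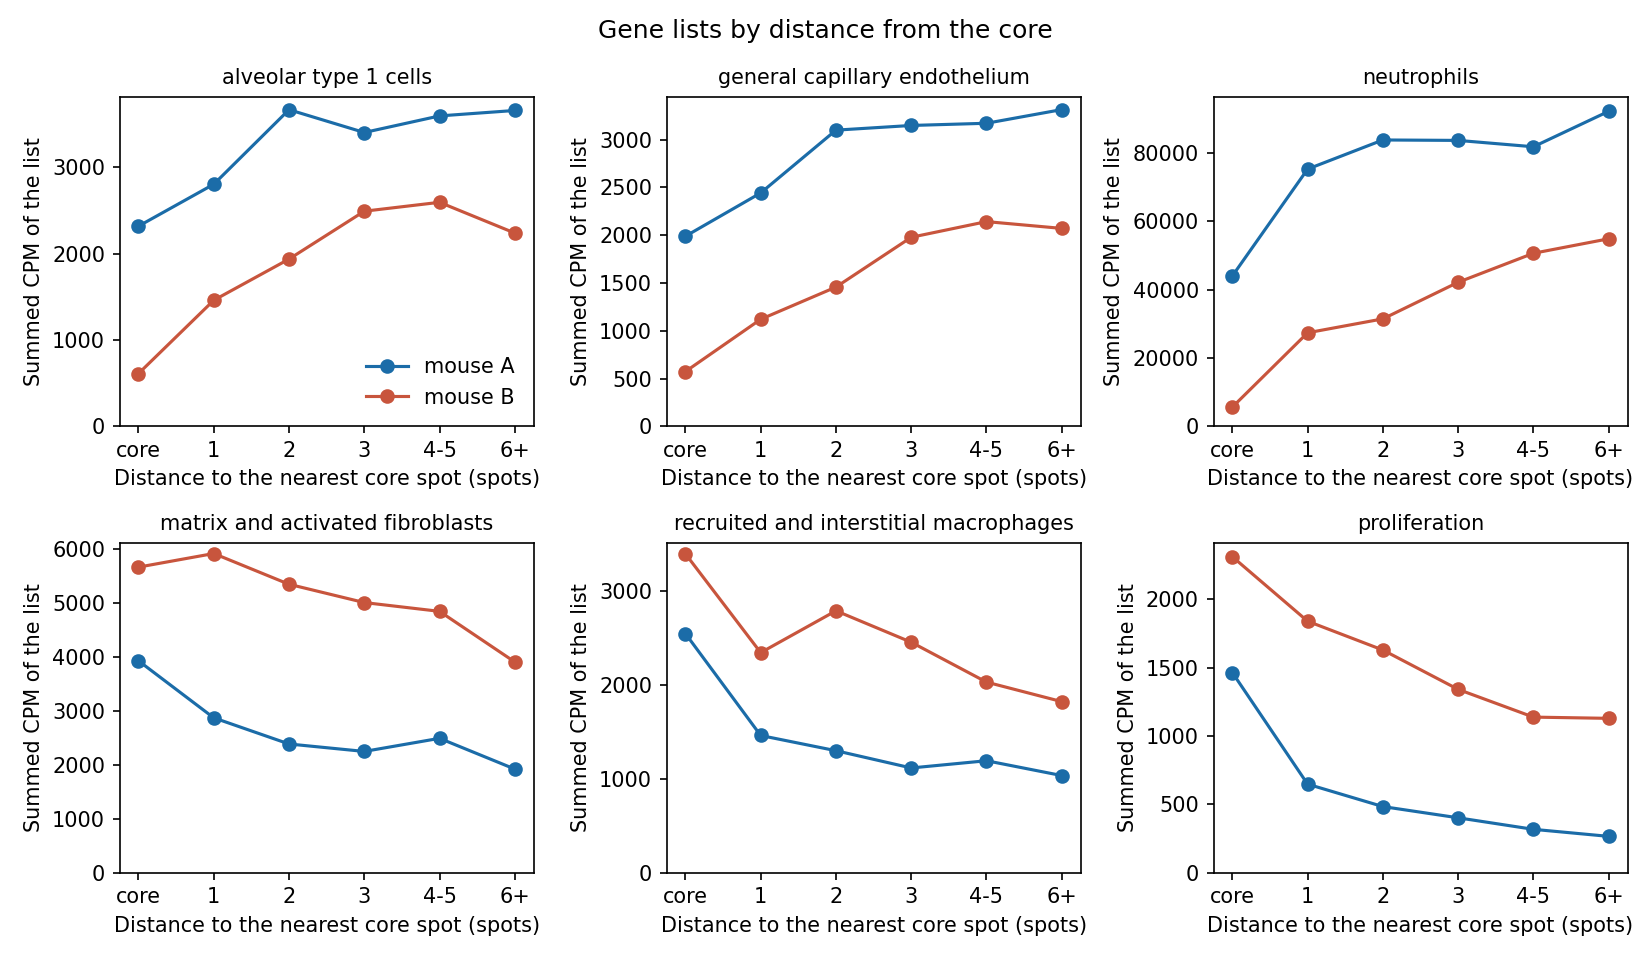
Summed CPM of 6 gene lists in the core and at increasing distance from it, in each mouse. Alveolar type 1, capillary and neutrophil genes are lowest in the core and next lowest in the margin at distance 1, and proliferation genes show the opposite order in both mice.

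Neutrophil genes, which took a large share of all UMIs in these lungs, were lower beside the foci than far from them. The list of 13 summed to 75260 CPM in the margin and 90700 in distant tissue of mouse A, and to 27370 and 54280 in mouse B, and in the core to 44000 and 5632. The margin of 5 of 6 and 8 of 9 foci lay below the distant level. Over single spots the list took a median of 6.972% of UMIs in the margin and 9.087% in distant tissue of mouse A, and 2.175% and 6.298% in mouse B. Retnlg, a secreted product of mature neutrophils, stood at 1641 and 2251 CPM in mouse A and at 1043 and 2288 in mouse B, and fell by 0.92 (SE 0.24, adjusted p = 0.0147), and by 0.51 against score-matched tissue (adjusted p = 0.0347). Mmp8, the neutrophil collagenase, stood at 453.7 and 571.8 CPM in mouse A and at 316.4 and 717.2 in mouse B, and fell by 0.91 (SE 0.22, adjusted p = 0.00625), while the change against score-matched tissue was -0.44 and not called. Ly6g, Camp and Csf3r fell too, so 5 of 13 fell and 0 rose, and 12 of 13 were lower in both mice. S100a8 and S100a9, the most abundant members, had log2 changes of -0.78 and -0.76 that were not called (adjusted p = 0.315 and 0.357) but were called against score-matched tissue. The median of the list was -0.61, or -0.34 against score-matched tissue. Without the second largest focus of mouse A, 1 of the 13 was called. Lcn2 and Il1r2, a secreted siderophore binder and the decoy receptor of interleukin 1, fell, with log2 changes of -0.84 and -0.80, among 14 acute-phase and IL-1 genes, and were called in 10 and 12 of the 15 fits that left out a focus.

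Genes of recruited and interstitial macrophages summed higher in the margin, with few calls. The list of 15 stood at 1461 and 1056 CPM in mouse A and at 2344 and 1851 in mouse B, and lay above the distant level at 6 of 6 and 7 of 9 foci. Its median log2 change was 0.28, or 0.02 against score-matched tissue, and by mouse 0.85 in A and 0.07 in B. Of the 15 members 7 were higher in both mice and 2 lower in both, so the higher sum is not shared by most members. Spp1, osteopontin, stood at 206.8 CPM in the margin and 32.27 in distant tissue of mouse A and at 584.4 and 362.1 in mouse B, and rose by 1.18 (SE 0.22, adjusted p = 4.56e-05). It was called without each of the 15 foci, and was not called against score-matched tissue, where the change was 0.79. It was higher in the core of both mice, at 666.1 and 1120 CPM. Of the 15 members 13 were not called, among them Apoe, with 206.8 and 212.3 CPM in mouse A and 342.2 and 298.4 in mouse B. Alveolar macrophage genes summed to 373.6 and 272.6 CPM in mouse A, above distant tissue at 5 of 6 foci, and to 290.6 and 310.9 in mouse B, above it at 3 of 9. Of the 7 tested 0 were called. Siglecf, a lectin that marks these cells, had 0 margin UMIs in both mice, where distant tissue stood at 8.166 and 3.512 CPM. At such levels the margin sums would hold very few UMIs, so no lower level can be read from this.

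Genes of the cell cycle stood between core and distant tissue. The list of 11 summed to 647.2 CPM in the margin, 272.4 in distant tissue and 1464 in the core of mouse A, and to 1840, 1130 and 2312 in mouse B, and all 10 members tested were higher in the margin in both mice. Cdk1, the mitotic kinase, stood at 153.4 and 28.71 CPM in mouse A and at 423 and 224.7 in mouse B, and rose by 1.19 (SE 0.21, adjusted p = 2.60e-05). Mcm5, a replication helicase subunit, rose by 0.88 (SE 0.25, adjusted p = 0.0306) and was called in 10 of the 15 fits that left out a focus. Ccnf, cyclin F, from outside the list, rose by 1.65 (SE 0.32, adjusted p = 0.000193), or 1.31 against score-matched tissue (adjusted p = 0.153). The median log2 change was 0.81, or 0.34 against score-matched tissue, where 0 of 10 were called.

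Of the 19 genes that rose whichever focus was left out and without airway-rich spots, 15 were higher still in the core of both mice. The like share over all genes tested was not counted. Reg3g, Ccnf, Mt2 and H2afx were not higher in the core of both mice. Apart from Reg3g, Ccnf and Msln, genes named in this paragraph were chosen after their values were seen. Lgals1, galectin 1, stood at 987.4 CPM in the margin and 168.3 in distant tissue of mouse A, and at 1947 and 1051 in mouse B, with core levels of 2927 and 2602. It rose by 1.54 (SE 0.23, adjusted p = 1.90e-08) and by 1.12 against score-matched tissue (adjusted p = 0.00019). Mt2, a metallothionein, stood at 293.6 and 73.63 CPM in mouse A and at 1030 and 640.2 in mouse B. It rose by 1.05 (SE 0.22, adjusted p = 0.000612) and by 0.95 against score-matched tissue (adjusted p = 0.00205), and in mouse B its core level was lower than its margin level, at 526.1 CPM. Tnfrsf12a, the TWEAK receptor, stood at 126.8 and 38.99 CPM in mouse A and at 339 and 170.6 in mouse B, and rose by 1.05, or 0.65 against score-matched tissue (adjusted p = 0.632). Mmp14, a membrane-bound collagenase, stood at 120.1 and 33.59 CPM in mouse A and at 235.7 and 127.9 in mouse B, and rose by 0.99, or 0.58 against it (adjusted p = 0.822). Msln, mesothelin, which lines the pleura and is made by carcinomas, stood at 53.37 and 16.33 CPM in mouse A and at 377.7 and 166.4 in mouse B, and rose by 1.12, or 0.55 against it (adjusted p = 0.871). Of 8 mesothelial genes 4 were tested, and the other 3 were not called.

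Car9, the carbonic anhydrase induced by hypoxia, had no margin UMI in mouse A, where distant tissue stood at 1.976 CPM. In mouse B it stood at 93.63 CPM in 13 of 31 margin spots, against 14.79 in distant tissue and 370.5 in the core. It rose by 2.38 (SE 0.47, adjusted p = 0.000212), and the call rests on mouse B. The hypoxia list of 11 was highest there in the margins of 3 foci, which held 3, 1 and 2 spots, at 5185, 3518 and 2936 CPM against 651.7 in distant tissue. In the same margins olfactory and vomeronasal receptor genes, counted as background, summed to 6584, 7036 and 367 CPM, against 199.7 in distant tissue, and their part in the result was not tested. Car9 was called without each of the 15 foci. The other 10 hypoxia genes were not called, among them Vegfa, with 266.9 and 308.3 CPM in mouse A and 77.49 and 93.17 in mouse B.

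The largest rises included secretory genes of the airway, and these were concentrated in the 3 margins named above. Reg3g, an antimicrobial lectin at chr6:78466269-78468874, stood at 1514 CPM in the margin and 104.1 in distant tissue of mouse A, and at 5014 and 238.1 in mouse B. It rose by 4.02 (SE 0.26, adjusted p = 2.40e-51). Its UMIs lay in 9 of 28 and 6 of 31 margin spots, and without the third largest focus of mouse B its level there was 4.101 CPM, below distant tissue. Bpifa1 and Bpifb1, neighbouring genes on chromosome 2 for secreted proteins of the airway lining, stood at 527.1 and 34.77 CPM and at 313.6 and 30.16 CPM in mouse A. In mouse B they stood at 1259 and 164.8 CPM and at 403.6 and 48.62 CPM, and at 8.203 and 4.101 CPM in the margin without that focus. Muc5b, a gel-forming mucin, stood at 93.4 and 15.15 CPM in mouse A and at 200.2 and 17.25 in mouse B, and had no margin UMI in mouse B without that focus. Tff2, Agr2, A2ml1 and Lypd2 rose by 4.28, 4.18, 2.19 and 2.11 and were not called without it. Tff2 and Agr2 rested on 2 and 4 margin UMIs in mouse A and on 20 and 18 in mouse B.

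Within the airway list 4 of 8 genes rose and 0 fell, but the club cell gene Cyp2f2, a cytochrome P450, was not called. It stood at 820.6 and 1225 CPM in mouse A and at 623.1 and 892.1 in mouse B (log2 change -0.67, SE 0.22, adjusted p = 0.077). Without the third largest focus of mouse B, one of the 3 with high airway genes, its change was -1.99 (adjusted p = 1.48e-17), and it was called as lower in 4 of the 15 fits that left out a focus. With airway-rich spots left out (23 and 27 margin spots kept), Reg3g rose by 1.43, and the values of Bpifa1, Bpifb1, Muc5b and Lypd2 were 0.74, 0.99, -0.04 and -0.26, none of them called. These spots were left out by the UMIs of the airway list itself, so lower levels of its genes are in part set by that choice. Among genes higher in the margin than in distant tissue of both mice, the 5 with the largest change over the core were Agr2, Cldn10, Jchain, Bpifa1 and Muc5b, of which Cldn10 was not called against distant tissue.

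Smooth muscle genes were highest in the same 3 margins, at 2295 and 1125 CPM in mouse A and 3854 in mouse B, against 657.9 and 532.6 CPM in the distant tissue of mouse A and mouse B. Des, Myh11 and Smtn, the intermediate filament desmin, the smooth muscle myosin and smoothelin, rose by 0.67, 1.13 and 0.76 among 10 members, and were called in 11, 13 and 4 of the 15 fits that left out a focus. Without the margin at 3854 CPM the median log2 change of the list, with the mouse as a block, was -0.61 in place of 0.57, and no member was called. Without airway-rich spots their changes were -0.83, -0.44 and 0.79, none called, and Tagln, transgelin, fell by 0.93 (adjusted p = 0.0435). Jchain and Ighm, of antibody-making cells, rose by 2.29 and 1.41, but 1 spot each held 100% and 97.3% of their margin UMIs in mouse B. In mouse A Ighm stood lower in the margin, at 106.7 and 278.7 CPM, and the list of B and plasma cell genes summed to 340.3 and 491.2 CPM and lay below the distant level at 6 of 6 foci. Without the margin of a focus of 5 core spots in mouse B Jchain was not called and Ighm fell by 1.59.

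**Figure D4:**
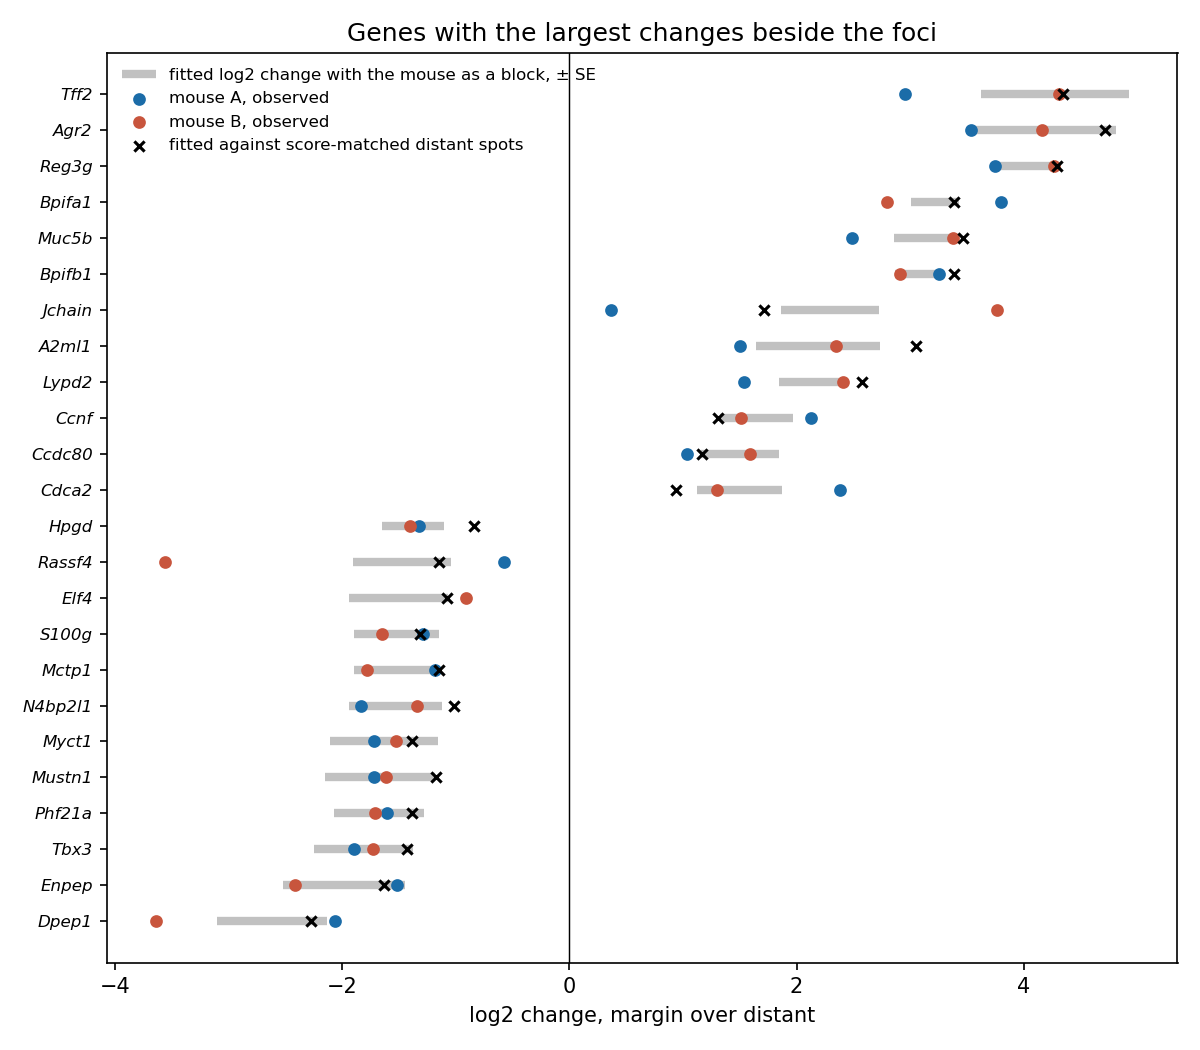
log2 change of the 12 genes with the largest rises and falls, as observed in each mouse (dots, left out where a margin had no UMI), as fitted with the mouse as a block (grey bars, ± SE) and against score-matched distant spots (crosses). Reg3g, Bpifa1, Bpifb1 and Muc5b are among the largest rises, and most falls are of like size in both mice.

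The largest falls were of weakly expressed genes with few margin UMIs. Dpep1, a dipeptidase at chr8:123186235-123201812 that binds neutrophils in lung vessels, stood at 26.69 CPM in the margin and 104.3 in distant tissue of mouse A, from 4 UMIs, and at 3.229 and 40.61 in mouse B, from 1 UMI. It fell by 2.62 (SE 0.48, adjusted p = 3.89e-05) and by 2.27 against score-matched tissue (adjusted p = 0.0347). Enpep, an aminopeptidase of the angiotensin pathway, Tbx3, a T-box factor of lung mesenchyme, and Myct1, an endothelial gene, fell, with log2 changes of -1.99, -1.82 and -1.64. Phf21a, Mustn1, N4bp2l1, Elf4, Mctp1, S100g and Rassf4 fell, with log2 changes between -1.68 and -1.47, with Elf4 at 0 margin UMIs in mouse A. Without the second largest focus of mouse A, Enpep, Myct1, Mustn1, N4bp2l1, Elf4, Mctp1 and Rassf4 were not called, and Myct1 and Rassf4 were called in 7 and 8 of the 15 fits that left out a focus.

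Immune signalling genes gave few calls. Bst2 (tetherin) stood at 260.2 CPM in the margin and 116.3 in distant tissue of mouse A and at 577.9 and 346.4 in mouse B, and rose by 0.77 (SE 0.21, adjusted p = 0.0162), as the only one of 10 type I interferon genes, in 12 of the 15 fits that left out a focus. Of 11 interferon-gamma and 14 antigen presentation genes 0 were called, and 9 and 8 of them had opposite directions in the 2 mice. Cxcl14, a chemokine of epithelia and fibroblasts, stood at 80.06 and 55.71 CPM in mouse A and at 306.7 and 120.2 in mouse B, and rose by 1.03 (SE 0.20, adjusted p = 0.000104) and by 0.97 against score-matched tissue (adjusted p = 0.0166), but was not called without a focus of 5 core spots in mouse B. The other 14 chemokines tested were not called. Genes of T and NK cells summed to 226.8 and 181.6 CPM in mouse A and to 58.12 and 87.87 in mouse B, and 0 of the 8 tested were called. Of the 14 on the list, 6 and 7 had no margin UMI. Plvap, of fenestrated endothelium, fell by 0.82 as the only one of 10 genes of activated endothelium, and was called in 13 of the 15 fits. None of 12 TGF-beta and wound response genes was called, nor any of 8 cardiac and 6 adipocyte genes.

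Of the stromal Met signature of the study, matched by symbol to 99 mouse genes, 56 were tested, 1 rose and 2 fell, with a median log2 change of 0.19. Their sum was lower in the margin, at 5077 and 5550 CPM in mouse A and 3345 and 4239 in mouse B, and lay below distant tissue at all 15 foci, so median and sum differ in sign. Of the stromal PT signature 76 of 81 were tested, 3 rose and 0 fell, with a median of 0.04, and the sum was 28710 and 27530 CPM in mouse A and 29240 and 28630 in mouse B. Ltb and Lcn2 were the 2 Met genes that fell, and Thbs1, Col1a1 and Cxcl14 were the PT genes that rose.

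**Figure D5:**
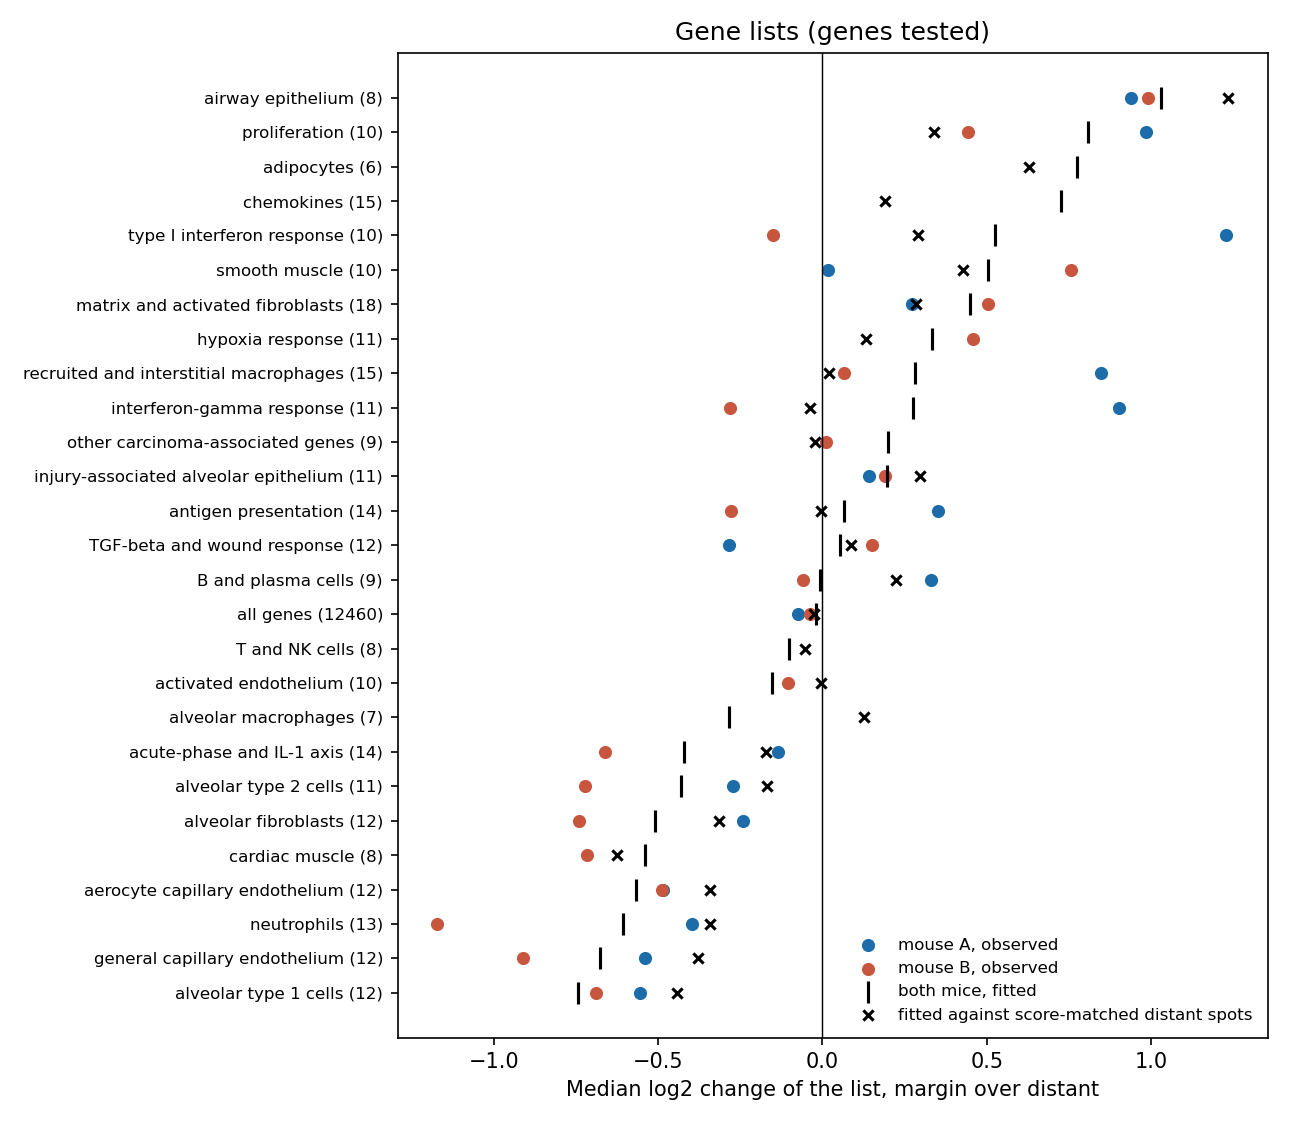
Median log2 change, margin over distant, of each gene list (genes tested in brackets) in each mouse (dots, left out where more than 2 members had no margin UMI), fitted over both mice (bars) and fitted against score-matched distant spots (crosses). Alveolar type 1 and type 2, capillary and neutrophil lists lie below 0 in both mice and proliferation and matrix lists above, and most medians lie nearer 0 against score-matched spots.

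Set against score-matched distant tissue, 25 genes were called with the block (0.236% of 10603), 20 higher (0.189%) and 5 lower (0.0472%). Of the 100 genes that rose against all distant tissue 96 were tested here and 18 called, and of the 187 that fell 2 were called. The 2 comparisons share their margin sums, and the matched spots are part of the distant tissue. Among the genes called in the comparison with all distant tissue, 54 of the 100 that rose were higher in the core than in the margin of both mice. Of the 187 that fell, 133 were lower in the core. The same shares over all genes tested were not counted, and the margin sums enter both sides, so these counts are a description only.

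The margin was also compared with the core. Over 8504 genes edgeR called 0 without the block, with 102 at an unadjusted p under 0.05, and DESeq2 called 1. With the block 132 were called, or 128 of 8496 without the score genes (1.51%), 121 higher in the margin (1.42%) and 7 lower (0.0824%). These counts depend on the scaling, since 522 genes were called with RLE size factors and 0 with library sizes alone. Ltf, lactotransferrin of neutrophil granules, stood at 2288 CPM in the margin and 1196 in the core of mouse A and at 907.2 and 101.4 in mouse B. Tcf21, a factor of lung fibroblasts, stood at 106.7 and 17.28 CPM in mouse A and at 35.51 and 1.837 in mouse B. These 2 were chosen after their values were seen.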

How the data were processed

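Visium counts of the lung sections of 2 mice were analysed. The deposited values are raw UMI counts per gene and spot, which the authors made with Space Ranger 2.0.0 on mm10 from probe libraries, with no normalization; 19465 genes were listed. Array positions of the spots were deposited with them, and images and filtered outputs of other kinds were not used here.

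The spot rule, the gene lists and the tests were chosen with earlier results of these data known. The genes of the study's signatures were taken from its supplementary lists by symbol. Counts were summed per mouse and class and tested with edgeR 4.0.16 in R 4.3.3 (filterByExpr, TMM scaling and the quasi-likelihood test, called at a Benjamini-Hochberg adjusted p under 0.05), without and with the mouse as a block, with DESeq2 1.42.0 as an alternative. The pairing comes from the section: both sums of a mouse are of the same animal, and their deviations from the class means correlated at 0.422 over 12460 genes. CPM are UMIs per 1000000 UMIs of a sum, log2 changes of single genes are fitted by edgeR with the block, and medians over lists and over all genes come from the fit without it unless the block is named. SE is the log2 change divided by the root of the F statistic. Without the block, p-values measure the spread between 2 animals within a class. With the block they rest on how the change between classes differed between the mice, moderated by a dispersion shared over genes. A small p-value with the block can occur where the mice disagree in direction, as for Ighm. Sums cover counting error of 149887 to 16228511 UMIs.

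Genes were named by a fixed rule: the score genes, the 12 largest rises and falls among called genes with a mean of at least 20 CPM and the same direction in both mice, the 4 most abundant members of each list with any that was called, and the 5 genes highest in the margin over the core that also exceeded distant tissue in both mice. As no gene was called without the block, calls with the block took their place. Others are marked as chosen after their values were seen. A few genes included in the counts are not reported by name here. Gene positions are from RefSeq for GRCm38.p6, the build of the files.

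Counts were simulated for margin against distant (12460 genes, 100 changed by each fold). With the block 61% of 2-fold and 98% of 4-fold changes were recovered, and 3 unchanged genes were called. Without it 0% were recovered. Recovery was not counted apart for weakly expressed genes. Whether the simulated noise was like the spread between foci was not tested. These shares therefore do not show how reliable the calls in the real sections are. No doublet caller was run and no cell type makeup estimated. Figures were drawn with matplotlib 3.10.9.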

Additional observations from a re-analysis of the deposited data

How the results depend on the processing

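The comparison of margin with distant tissue gave 0 calls without the block and 290 with the mouse as replicate block. Without the block, DESeq2 called 8 genes, no filter on low counts 15, foci of 10 or more core spots 1 and the middle 50% of depth 1. With the block, the counts were 92 by DESeq2, 352 with RLE size factors, 273 with library size only (which moved the median log2 change of all genes from -0.02 to 0.10), 7 with the core from the top 5%, 464 with distant spots at 6 or more, 389 with the margin at distance 1 to 2, 289 for foci of 10 or more core spots, 117 in the middle 50% of depth, 306 for the score without Mmp3, 25 against score-matched spots, 36 with spots thinned to 2000 UMIs, 160 without airway-rich spots, 275 without cardiac-rich spots and 116 without tissue-edge spots. With each focus left out in turn they ran from 82 to 417. The other alternatives, among them no exclusion by score and all classes in 1 fit, each with the block, gave 0 calls. For margin against core the counts were 0 without and 132 with the replicate block, 1 by DESeq2, 78 by DESeq2 with the block, 522 with RLE size factors and the block and 21 with no filter. Score-matched spots, the added scalings with the block and the leaving out of foci were chosen after seeing the data.

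Directions turned, with a call under the alternative, for Tagln (-0.93 without airway-rich spots, and not called with all spots), Scgb3a2 (-0.98 for the score without Mmp3) and Ighm (-1.63 for foci of 10 or more core spots, -1.96 in the middle 50% of depth, -1.78 for the score without Mmp3, and -1.59 without the margin of 1 focus), all with the block, and Ighm stood at 3.09 in mouse B alone and -1.50 in mouse A alone; the cause was not tested. Bounding the classes at the top 50% by score could not be made, since the median score of mouse A is 0, and with 1 mouse left out no class keeps a replicate, so no count was possible. With 28 and 31 margin spots, genes under about 20 CPM rest on a few UMIs per mouse.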
